A study of Mus musculus with 17 samples.

Results

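The cytochrome P450 genes are described here across sorted mouse medullary thymic epithelial cells. The members are all array probe sets whose single gene symbol in the platform annotation is Cyp followed by a digit, with 1 probe set per gene. This rule gave 87 genes, each with 1 such probe set, of the 19752 genes on the array with a probe set of 1 symbol. Whole-transcript arrays measured RNA of 17 samples. All came from C57BL/6 mice of mixed sex that carried the Adig reporter, in which Aire drives an Igrp-GFP fusion, and all were CD45-negative, Ly51-negative cells with high MHC class II, sorted on a MoFlo instrument. The 6 groups were perinate Aire-knockout (KO) GFP+ cells (3 arrays), perinate wild-type (WT) GFP+ cells (3), perinate WT GFP- cells (2), adult KO GFP+ cells (3), adult WT GFP+ cells (3) and adult WT GFP- cells (3). Perinates were 3 days old by their labels, while the series text gives a range that starts at birth, and adults were 5 weeks old. GFP reports activity of the Aire promoter, so GFP- cells are the remaining cells of the same gate, and KO cells were sorted as GFP+ too.

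Cytochrome P450 enzymes carry a haem group and use molecular oxygen to hydroxylate or epoxidise small lipophilic substrates. Families numbered low, chiefly Cyp1 to Cyp3, are best known for oxidising drugs and other foreign compounds in liver, lung and olfactory mucosa. Cyp4 enzymes act on fatty acids, and others are dedicated to a step of steroid hormone, bile acid, cholesterol, vitamin D or retinoic acid metabolism. Medullary thymic epithelial cells transcribe many genes of such specialised tissues, partly under the control of Aire, and present their products to developing T cells. Several P450 enzymes are autoantigens of people who lack AIRE.

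The intensity scale sets what can be read from these values. Array medians lay between 144.5 and 157.1. An intensity below the 40th percentile of its array, which lay between 96.16 and 112.1, is treated here as close to background, a convention chosen for this report because the deposited table holds no detection calls. Where all arrays of a group were below it, a fold difference is given as a lower bound, with that percentile or the group's own higher signal in place of the dim level, and no fold is given where both groups were below it. A log2 difference against a dim group, or between dim groups, is the fitted difference of signals near background and does not give the size of a change in RNA. Whether replicates are separate animals or pools is not stated in the labels, so p-values reflect only the spread among these samples, part of which may be technical. The Aire probe set read 4072 to 6000 in perinate KO cells, against 4094 to 5336 in perinate WT GFP+ cells, and 4689 to 5241 in adult KO cells, against 4355 to 6196 in adult WT GFP+ cells; the deleted part of Aire is not stated, so this checks no genotype. Perinate KO arrays 2 and 3 stood apart in the Y-linked Uty, at 19.24 and 16.14, against 168.9 to 366.2 on the other 15 arrays. Calls that rest on perinate KO cells were therefore repeated without arrays 2 and 3, where the lone array 1 takes its spread from the other groups, and each call lost this way is given beside its result.

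Most P450 genes were dim in all of these cells. Of the 87 genes, 10 were above the 40th percentile on all 17 arrays, 24 on 2 to 16 arrays, 1 on a single array and 52 on none. The 34 genes above it on at least 2 arrays (39.1%, against 70.1% of all genes) were tested. Such a gene can pass through the group in which it is high, so counts over the 34 are given beside counts over all 87 genes fitted without this filter. Perinate KO cells had 15 members above the 40th percentile on every array, perinate WT GFP+ cells 19, perinate WT GFP- cells 17, adult KO cells 19, adult WT GFP+ cells 24 and adult WT GFP- cells 20.

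Among the dim genes were many enzymes of liver and adrenal gland. None of the 13 Cyp2c genes, which encode the major fatty acid epoxygenases and drug oxidases of liver, was bright enough to be tested. Below the 40th percentile on every array were also Cyp2e1, which oxidises ethanol in liver, Cyp3a11, a main drug-oxidising enzyme of mouse liver, Cyp7a1 and Cyp8b1, which act in bile acid synthesis, Cyp11b1 and Cyp21a1, which act in adrenal steroid synthesis, and Cyp1a1, the aryl hydrocarbon-inducible neighbour of Cyp1a2. A dim probe set does not show that a transcript is absent.

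**Figure D1:**
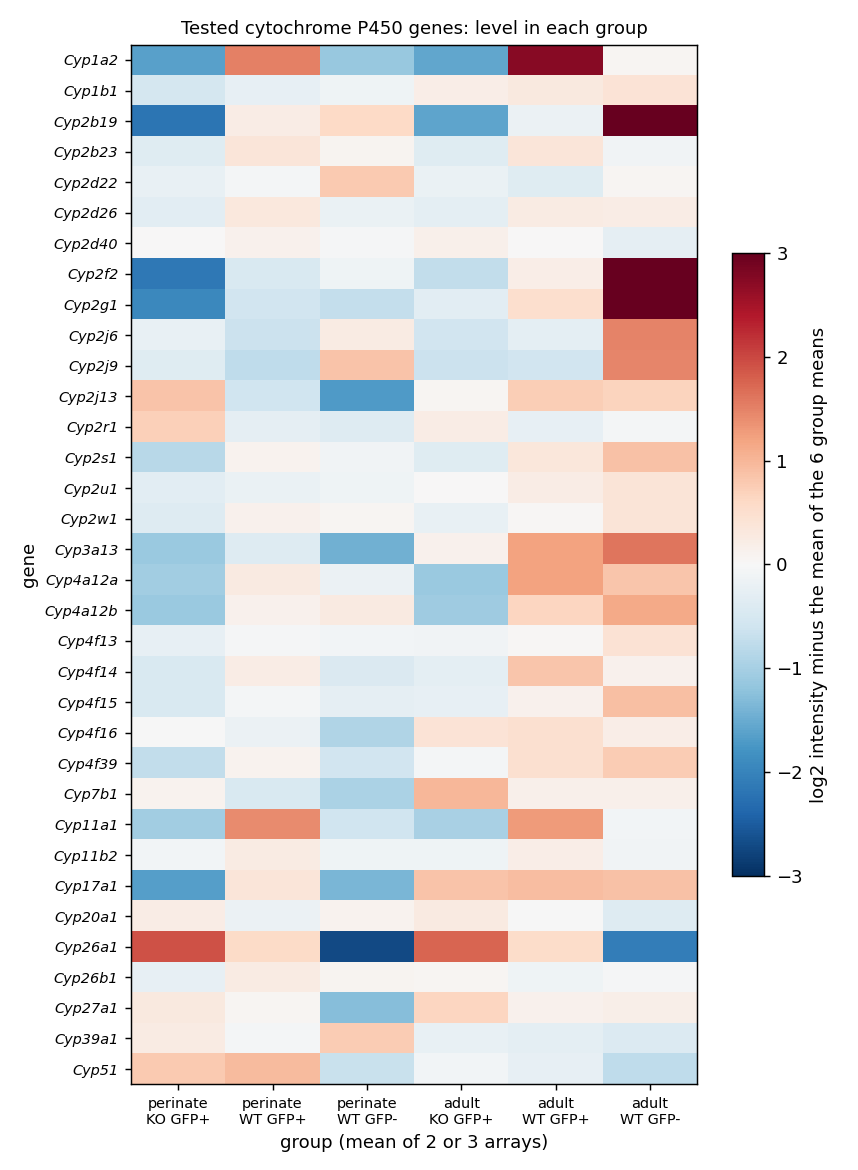
Level of each of the 34 tested P450 genes (rows) in the 6 groups (columns), as the group mean of log2 intensity minus the mean of the 6 group means of that gene. The colour scale ends at 3 in either direction, so that Cyp2b19, Cyp2f2 and Cyp2g1 in adult WT GFP- cells reach its upper end, and Cyp1a2 and Cyp11a1 are highest in WT GFP+ cells of both ages.

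The KO was set against WT GFP+ cells to find transcripts that depend on Aire, and P450 genes fell more often than they rose. In perinates 16 of the 34 tested genes were lower in KO cells (13% of all genes tested) and 4 were higher (13.5% of all genes). In adults 13 were lower (10.8% of all genes) and 3 higher (9.06%). Over all 87 genes without the filter, 27 were lower and 4 higher in perinate KO cells (background 14.3% lower, 10.1% higher), and 28 lower and 3 higher in adult KO cells (11% and 7.58%). The median log2 difference of the 34 was -0.37 in perinates, against 0.09 over all genes, and -0.26 in adults, against 0.06. Over the 87 without the filter it was -0.21 in perinates, against 0.01, and -0.21 in adults, against 0.05. At both ages 12 genes were lower (8.04% of all genes) and 1 was higher (3.49%). In perinates alone 4 were lower and 2 higher, in adults alone 2 were higher, 1 changed in opposite directions (0.13% of all genes) and 12 passed in neither (65.3%). In these bulk samples fewer cells that express a gene and less RNA per cell cannot be told apart. With perinate KO array 1 alone, 10 genes were lower and 2 higher in perinates, where 8.46% of all genes passed.

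Cyp1a2, which oxidises caffeine and aromatic amines in liver, was dim on every KO array and above the 40th percentile on every WT GFP+ array. It read 31.22, 28.28 and 31.8 in perinate KO cells, against 402.1, 190.3 and 260.5 in perinate WT GFP+ cells. In adults it read 31.03, 33.74 and 32.23 in KO cells, against 645.5, 672.5 and 573.2 in WT GFP+ cells. The groups did not overlap at either age, and the adult WT GFP+ arrays were all above the perinate ones. The log2 difference was -3.16 ± 0.19 (SE) in perinates (adjusted p = 2.98e-09, at least 2.76-fold) and -4.28 ± 0.19 in adults (adjusted p = 4.86e-11, at least 6.16-fold). GFP- cells were dim as well, at 36.78 and 50.96 in perinates and 94.52 to 103.7 in adults. Cyp1b1, which hydroxylates oestradiol outside the liver, averaged 56.3 ± 7.83 in perinate KO cells and 67.4 ± 4.69 in perinate WT GFP+ cells (SD, n = 3 each, adjusted p = 0.248), and 93.1 ± 8.28 in adult KO cells and 99.3 ± 21.3 in adult WT GFP+ cells (adjusted p = 0.805).

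Cyp11a1, the mitochondrial enzyme that cuts the cholesterol side chain in the first step of steroid hormone synthesis, lies close to Cyp1a2 and Cyp1a1 in the RefSeq gene order. It read 45.55, 45.97 and 36.22 in perinate KO cells, against 240.3, 236.2 and 223.6 in perinate WT GFP+ cells, and 41.29, 49.57 and 42.37 in adult KO cells, against 194.2, 206.2 and 242.6 in adult WT GFP+ cells. KO arrays were dim and WT GFP+ arrays were not, without overlap at either age. The log2 differences were -2.46 ± 0.14 in perinates (adjusted p = 1.34e-09, at least 2.37-fold) and -2.27 ± 0.14 in adults (adjusted p = 1.65e-09, at least 2.09-fold). GFP- cells were dim too, at 51.2 and 65.3 in perinates and 69.85 to 92.1 in adults.

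Cyp17a1, the steroid hydroxylase and lyase needed for androgen and cortisol synthesis, fell in KO cells of perinates and passed no test in adults. It read 65.8, 78.42 and 79.99 in perinate KO cells, against 274.2, 343.2 and 297.4 in perinate WT GFP+ cells (-2.03 ± 0.19, adjusted p = 5.99e-07, at least 3.09-fold). Adult levels were 602.6, 382.3 and 329.2 in KO cells, against 415.7, 416.5 and 518.2 in WT GFP+ cells (-0.08 ± 0.19, adjusted p = 0.81). The perinate groups were apart and the adult groups overlapped. Perinate GFP- cells were as dim as perinate KO cells, at 99.25 and 84.32, while adult GFP- cells read 363.7 to 532.7, within the range of the other adult groups. Cyp11b2, the aldosterone synthase, passed neither test, at 83.6 ± 15.1 in perinate KO cells and 105 ± 17.7 in perinate WT GFP+ cells (adjusted p = 0.108) and 81.3 ± 11.3 in adult KO cells and 102 ± 8.64 in adult WT GFP+ cells (adjusted p = 0.136). Of the P450 enzymes named as autoantigens in human AIRE deficiency, the mouse counterparts Cyp1a2, Cyp11a1 and Cyp17a1 were testable and Cyp21a1 was not. Cyp2a5 and Cyp2a4, the mouse relatives of human CYP2A6, share a probe set.

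**Figure D2:**
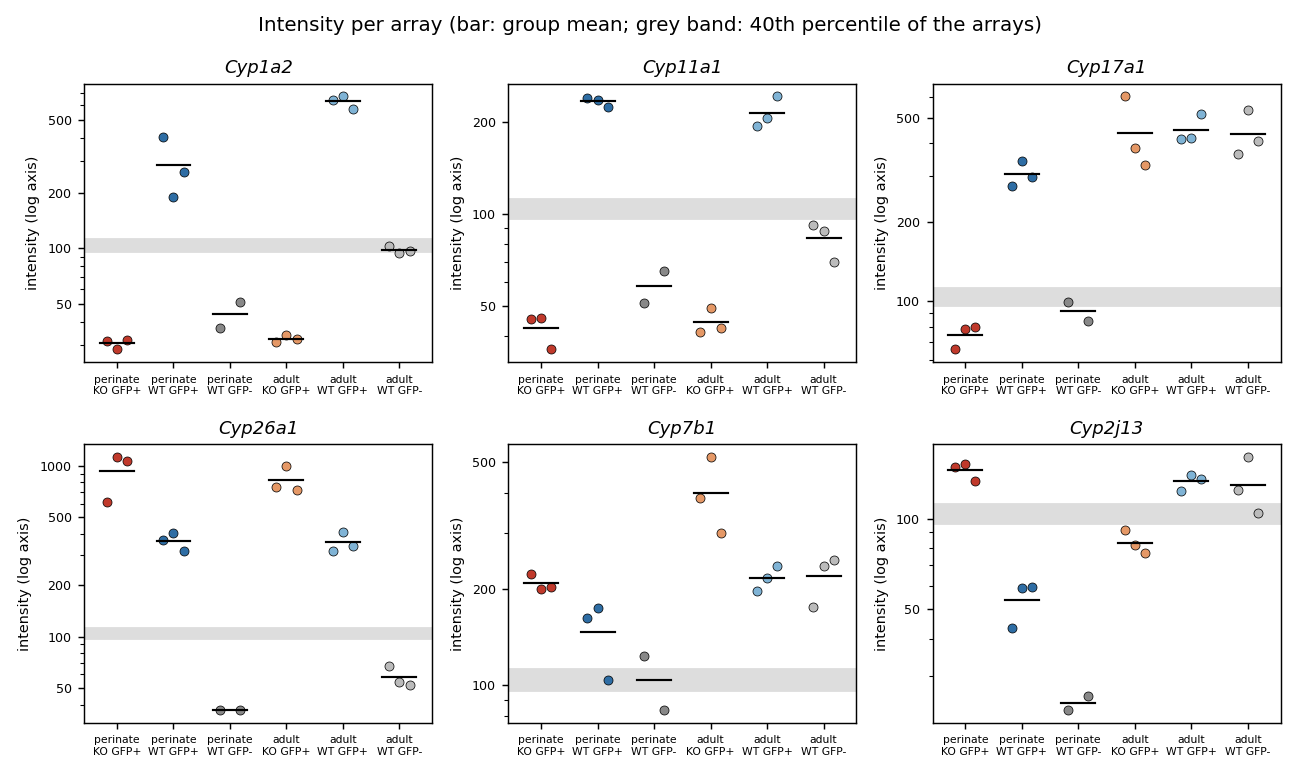
Intensity on a log axis of Cyp1a2, Cyp11a1, Cyp17a1, Cyp26a1, Cyp7b1 and Cyp2j13 on each of the 17 arrays (points), by group, with the mean of each group as a bar and the range of the arrays' 40th percentiles, 96.16 to 112.1, as a grey band. Cyp1a2 and Cyp11a1 are below the band in KO cells of both ages, Cyp17a1 in perinate KO cells, and Cyp26a1 in GFP- cells. In perinate GFP- cells Cyp17a1 is within the band on array 1 (99.25) and below it on array 2 (84.32).

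The fatty acid hydroxylases of the Cyp4 family fell in part. Of 7 tested members of 16, 4 were lower in KO cells at each age and none was higher, where 13% of all genes tested were lower in perinates and 10.8% in adults. Without the filter 7 of the 16 were lower at each age (14.3% and 11% of all genes). Cyp4a12a, the main arachidonic acid hydroxylase of male mouse kidney, read 34.79, 36.13 and 27.94 in perinate KO cells, against 63.58, 101.3 and 82.91 in perinate WT GFP+ cells (-1.31 ± 0.26, adjusted p = 0.0017). In adults it read 28.09, 35.24 and 30.29 in KO cells, against 120.9, 165.3 and 186 in WT GFP+ cells (-2.32 ± 0.26, adjusted p = 4.78e-06, at least 1.52-fold). Adult WT GFP+ cells were above the 40th percentile on each array and KO cells on none. Its near-identical neighbour Cyp4a12b moved the same way (-1.23 ± 0.26 in perinates and -1.70 ± 0.26 in adults), but probes of such close copies may share signal, so the values of either are uncertain. With perinate KO array 1 alone both lost their perinate calls (adjusted p = 0.0708 and 0.0757).

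Within the Cyp4f subfamily, Cyp4f14, which hydroxylates leukotrienes and fatty acids, averaged 56.1 ± 4.37 in perinate KO cells and 90.6 ± 2.64 in perinate WT GFP+ cells (-0.69 ± 0.12, adjusted p = 0.000371). In adults it averaged 63.1 ± 2.45 in KO cells and 140 ± 23.9 in WT GFP+ cells (-1.14 ± 0.12, adjusted p = 1.37e-06, at least 1.36-fold). Cyp4f39, which makes the very long hydroxylated fatty acids of the skin barrier, averaged 82.2 ± 15.5 in perinate KO cells and 147 ± 24.4 in perinate WT GFP+ cells (-0.84 ± 0.18, adjusted p = 0.00231), and 130 ± 18.6 in adult KO cells and 191 ± 31.4 in adult WT GFP+ cells (-0.55 ± 0.18, adjusted p = 0.0368). Neither gene's groups overlapped, but the adult call of Cyp4f39 was lost without any of WT GFP+ arrays 6, 7 and 8 or KO arrays 2 and 3 (adjusted p = 0.0520 to 0.153). It was also lost with quantile normalization or with arrays centred on their median (adjusted p = 0.0758 and 0.0557). The perinate call of Cyp4f39 was lost with KO array 1 alone, where the log2 difference was -0.55. The other 3 tested Cyp4f genes, Cyp4f13, Cyp4f15 and Cyp4f16, had log2 differences between -0.40 and 0.16 and passed at neither age.

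The Cyp2 genes that fell include a run of neighbours. RefSeq places 13 Cyp2 genes next to each other on chromosome 7, in the order Cyp2s1, Cyp2b10, Cyp2b13, Cyp2b9, Cyp2a4, Cyp2b23, Cyp2b19, Cyp2g1, Cyp2a5, Cyp2a22, Cyp2a12, Cyp2f2 and Cyp2t4, with 5 genes of other families between them. Of these, 11 are members and 5 were tested. All 5 were lower in perinate KO cells (13% of all genes tested) and 4 in adult KO cells (10.8%). The remaining members were too dim to be tested, and a gene can pass the filter through the group in which it is high. Cyp2b19, the keratinocyte epoxygenase of arachidonic acid, read 70.73, 48.29 and 49.81 in perinate KO cells, against 220.1, 292.4 and 411 in perinate WT GFP+ cells (-2.43 ± 0.27, adjusted p = 4.2e-06, at least 3.03-fold). Adult arrays gave 119.2, 92.19 and 55.68 in KO cells, against 218.9, 253.8 and 209 in WT GFP+ cells (-1.42 ± 0.27, adjusted p = 0.00101). The KO arrays were lower than every WT GFP+ array at both ages.

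Cyp2f2, the lung club cell enzyme that activates naphthalene, read 113, 107.1 and 112.4 in perinate KO cells, against 311.3, 447.3 and 322.1 in perinate WT GFP+ cells (-1.68 ± 0.29, adjusted p = 0.000415). In adults it read 446.3, 381.7 and 144.9 in KO cells, against 462.9, 522 and 714.6 in WT GFP+ cells (-0.94 ± 0.29, adjusted p = 0.0302). The adult difference leaned on KO array 3: without it the log2 difference was -0.43 (adjusted p = 0.0996), and the call was also lost without WT GFP+ array 7 or 8 (adjusted p = 0.0602 and 0.136). Cyp2g1, of olfactory mucosa, averaged 207 ± 10.8 in perinate KO cells and 529 ± 64.6 in perinate WT GFP+ cells (-1.35 ± 0.30, adjusted p = 0.00319; adjusted p = 0.0798 with KO array 1 alone). In adults it averaged 692 ± 306 in KO cells and 1120 ± 87.4 in WT GFP+ cells and did not pass (-0.82 ± 0.30, adjusted p = 0.0633). KO array 3 was the lowest adult KO array here as well, at 346.7, against 928.2 and 800.2 on the others.

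Cyp2s1, Cyp3a13, Cyp2b23 and Cyp2d26 were lower in KO cells at both ages, and Cyp2w1 in perinates. Cyp2s1, an epithelial P450 of skin and airway, averaged 114 ± 15 in perinate KO cells and 218 ± 5.46 in perinate WT GFP+ cells (-0.94 ± 0.13, adjusted p = 5.41e-05), and 157 ± 0.455 in adult KO cells and 255 ± 21 in adult WT GFP+ cells (-0.69 ± 0.13, adjusted p = 0.00101). Cyp3a13, the Cyp3a enzyme of mouse intestine, averaged 57.6 ± 9.08 in perinate KO cells and 94.6 ± 14.8 in perinate WT GFP+ cells (-0.71 ± 0.16, adjusted p = 0.00375; adjusted p = 0.234 with KO array 1 alone). In adults it averaged 135 ± 12.4 in KO cells and 285 ± 47.9 in WT GFP+ cells (-1.07 ± 0.16, adjusted p = 0.000101). Groups did not overlap in any of these 4 comparisons. Cyp2b23 (-0.73 ± 0.14 at each age) and Cyp2d26 (-0.63 ± 0.13 in perinates and -0.55 ± 0.13 in adults) fell at both ages and Cyp2w1, an enzyme of fetal gut, in perinates (-0.54 ± 0.13, adjusted p = 0.0062), all 3 to levels below the 40th percentile. These 3 lost their perinate calls with KO array 1 alone (adjusted p = 0.0836, 0.18 and 0.0574).

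The retinoic acid hydroxylases Cyp26a1 and Cyp26b1, which clear retinoic acid from cells, went opposite ways in perinates. Their 200 bases upstream of the transcription start, and those of Cyp1a2, are printed because Cyp26a1 was higher and Cyp1a2 lower in KO cells of both ages. The sequences come from RefSeq on build GRCm38.p6 and read 5′ to 3′ on the gene's own strand. They are Cyp26a1 at chr19:37697608-37697807 (plus strand), Cyp26b1 at chr6:84593811-84594010 (minus strand) and Cyp1a2 at chr9:57683656-57683855 (minus strand). Capitals mark a direct repeat of AGTTCA with 5 bases between, the DR5 form of a retinoic acid response element (on the reverse strand in Cyp26a1), or a TATA box, TATAAA.
Cyp26a1: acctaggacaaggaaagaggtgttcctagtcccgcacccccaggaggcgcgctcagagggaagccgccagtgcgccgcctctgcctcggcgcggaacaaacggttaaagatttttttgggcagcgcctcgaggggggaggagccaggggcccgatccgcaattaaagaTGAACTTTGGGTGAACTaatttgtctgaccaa
Cyp26b1: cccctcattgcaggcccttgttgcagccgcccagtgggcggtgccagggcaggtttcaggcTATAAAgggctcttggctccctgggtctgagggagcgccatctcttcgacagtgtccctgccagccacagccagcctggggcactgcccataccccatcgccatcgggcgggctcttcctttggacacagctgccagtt
Cyp1a2: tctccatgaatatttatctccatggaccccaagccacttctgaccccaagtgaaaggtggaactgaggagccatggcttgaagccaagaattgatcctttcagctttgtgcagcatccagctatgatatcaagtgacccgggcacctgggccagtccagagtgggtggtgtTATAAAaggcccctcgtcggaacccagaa

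The repeat of AGTTCA with 5 bases between, sought on both strands of the 250 bases upstream of each start, lay 32 to 16 bases upstream in Cyp26a1 and in no other of the 64 members with a RefSeq promoter. It occurred in 7 of 32851 RefSeq promoters of that length, or 0.0213%. Only these exact letters were sought, so any other spelling of such an element was not counted, in members or elsewhere. TATAAA, on either strand, lay 29 to 24 bases upstream in Cyp1a2 and 139 to 134 bases upstream in Cyp26b1. It was found in 23 of the 64 members, in 4 of the 25 of them that were tested and in 12.4% of all promoters. GCGTG, the core bound by the aryl hydrocarbon receptor that induces Cyp1 genes, lay in 15 of the 64 members and in 28.2% of all promoters. Among the 25 tested members it lay in 9, Cyp1b1 among them and Cyp1a2 not. Each printed promoter holds 1 marked motif, so none overlap, and a match describes letters only.

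Cyp26a1 was the single member higher in KO cells at both ages. It read 613.2, 1126 and 1072 in perinate KO cells, against 367.9, 405.6 and 317.3 in perinate WT GFP+ cells (1.32 ± 0.20, 2.5-fold, adjusted p = 9.86e-05). Adult arrays gave 753.2, 1002 and 723.9 in KO cells, against 315.9, 410.2 and 341.3 in WT GFP+ cells (1.21 ± 0.20, 2.31-fold, adjusted p = 0.000221). Every KO array was above every WT GFP+ array of its age. The 2 highest perinate KO arrays were arrays 2 and 3, which stood apart in Uty. With KO array 1 alone the perinate log2 difference was 0.76. GFP- cells were dim, at 37.32 and 37.15 in perinates and 52.38 to 66.94 in adults. Cyp26b1 averaged 97.2 ± 9.86 in perinate KO cells and 137 ± 10.6 in perinate WT GFP+ cells (-0.49 ± 0.10, adjusted p = 0.0015), and 118 ± 5.73 in adult KO cells and 104 ± 4 in adult WT GFP+ cells (0.19 ± 0.10, adjusted p = 0.2). Cyp26c1 was below the 40th percentile on every array.

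Enzymes of sterols and vitamin D account for 3 of the other increases. Of 4 tested sterol and bile acid genes of 7, 2 were higher in adult KO cells (9.06% of all genes tested). None passed in perinates (13.5% of all genes higher, 13% lower). Cyp7b1, the oxysterol hydroxylase, read 383.5, 516.6 and 298.3 in adult KO cells, against 196.9, 215.6 and 236.3 in adult WT GFP+ cells (0.85 ± 0.21, 1.81-fold, adjusted p = 0.00864; 0.65 and adjusted p = 0.064 without KO array 2). In perinates it averaged 209 ± 12.7 in KO cells and 147 ± 37.7 in WT GFP+ cells (0.54 ± 0.21, adjusted p = 0.0695). Cyp27a1, the mitochondrial sterol hydroxylase of bile acid and vitamin D metabolism, averaged 464 ± 28.1 in adult KO cells and 331 ± 43 in adult WT GFP+ cells (0.49 ± 0.14, adjusted p = 0.0189), a call lost without KO array 2 or WT GFP+ array 6 or 8 (adjusted p = 0.0740 to 0.0833). Cyp2r1, the main vitamin D hydroxylase of liver, read 72.1, 113.8 and 120.7 in perinate KO cells, against 40.61, 50.63 and 61.01 in perinate WT GFP+ cells (0.99 ± 0.19, adjusted p = 0.00114). Its lowest KO array is array 1, and with that array alone the log2 difference was 0.53 (adjusted p = 0.195). Cyp51, the lanosterol demethylase of cholesterol synthesis, and Cyp39a1, another oxysterol hydroxylase, passed at neither age (adjusted p = 0.629 and 0.217 in perinates, 0.686 and 0.826 in adults). Cyp20a1, an orphan enzyme, was higher in perinate KO cells, at 322 ± 23.7 against 244 ± 19.2 in perinate WT GFP+ cells (0.40 ± 0.12, adjusted p = 0.0242), a call lost without KO array 1 or 2 or WT GFP+ array 5 or 7 (adjusted p = 0.0695 to 0.0777) and with KO array 1 alone (0.50, adjusted p = 0.111).

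**Figure D3:**
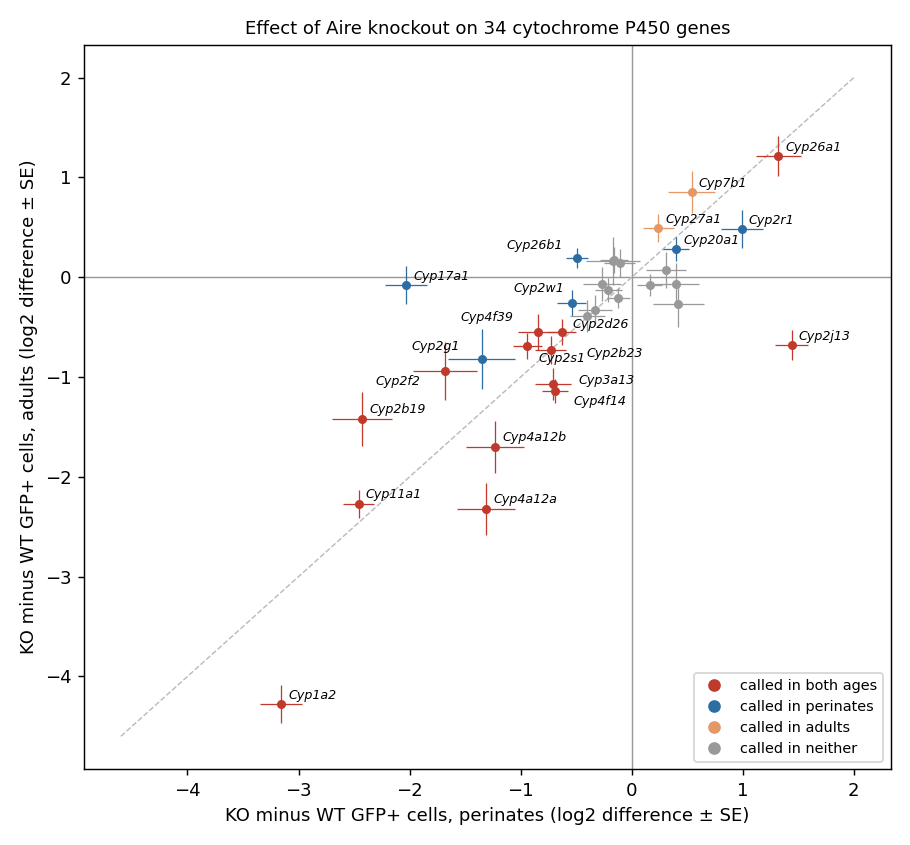
Log2 difference of KO minus WT GFP+ cells in perinates (horizontal axis) and adults (vertical axis) for the 34 tested P450 genes, with the SE as bars, the line of equal effects dashed and colours for the ages at which a gene passed. Cyp1a2 lies farthest down on both axes, Cyp26a1 is high on both, and Cyp17a1 and Cyp2j13 lie far from the dashed line.

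The effect of the knockout differed between the ages for 3 members, with a higher effect in perinates for 1 (0.722% of all genes) and a lower one for 2 (0.484%). Over all 87 genes without the filter it was 3 and 2 (0.749% and 0.506%). Cyp2j13, of the Cyp2j family of fatty acid epoxygenases, read 148.4, 151.3 and 133.7 in perinate KO cells, against 43.39, 59.04 and 59.23 in perinate WT GFP+ cells (1.44 ± 0.15, adjusted p = 1.75e-06, at least 1.3-fold). Adult levels were 91.34, 81.71 and 76.79 in KO cells, against 123.9, 139.7 and 135.5 in WT GFP+ cells (-0.68 ± 0.15, adjusted p = 0.00309, at least 1.3-fold). The groups were apart at both ages, in opposite order, and the difference of the effects, perinate minus adult, was 2.11 ± 0.21 (adjusted p = 0.000238). For Cyp17a1 that difference was -1.95 ± 0.27 (adjusted p = 0.00396) and for Cyp26b1 -0.68 ± 0.14 (adjusted p = 0.0274). The call of Cyp26b1 was lost without any of adult WT GFP+ arrays 6 to 8, adult KO arrays 2 and 3 or perinate WT GFP+ array 5 (adjusted p = 0.0571 to 0.0736).

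Among members below the filter, some signals passed the test in a fit without it. Both groups were near background in every case, so no size is given and the levels stand as measured. Cyp2b10, the liver enzyme induced through the receptor CAR, averaged 41.8 ± 2.93 in perinate KO cells and 78.2 ± 7.38 in perinate WT GFP+ cells (adjusted p = 6.31e-05), and 45.8 ± 2.43 in adult KO cells and 95.6 ± 19.3 in adult WT GFP+ cells (adjusted p = 1.07e-05). Cyp4f18, a leukotriene hydroxylase of neutrophils, averaged 38.1 ± 5.01 in perinate KO cells and 65.5 ± 3.11 in perinate WT GFP+ cells (adjusted p = 0.000154). Among adults its mean was 41.3 ± 4.76 in KO cells and 80 ± 2.2 in WT GFP+ cells (adjusted p = 1.58e-05). Cyp27b1, which makes active vitamin D, was lower in KO cells at both ages (adjusted p = 0.000398 in perinates and 0.000418 in adults). It read 49.48 to 55.55 in perinate KO cells, against 80.67 to 83.83 in perinate WT GFP+ cells. Adult levels were 52.32 to 60.92, against 80.72 to 95.28. Cyp11b1, the last enzyme of glucocorticoid synthesis, was lower in KO cells too (adjusted p = 0.000248 and 0.00677). Its levels were 37.03 to 44.07, against 68.78 to 83.08, in perinates and 41.18 to 51.75, against 63.12 to 72.04, in adults. Cyp1a1 averaged 38.7 ± 2.61 in perinate KO cells and 63.1 ± 10 in perinate WT GFP+ cells (adjusted p = 0.00167). Among adults Cyp1a1 averaged 38.3 ± 2.85 in KO cells and 53 ± 11.3 in WT GFP+ cells, where the groups overlapped (adjusted p = 0.0335). Cyp21a1 (adjusted p = 0.167 in perinates and 0.691 in adults) and Cyp7a1 (adjusted p = 0.985 and 0.109) passed at neither age.

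Genes that work with P450 enzymes were counted from lists of such partners. Over all genes tested, 13% were lower and 13.5% higher in perinate KO cells, and 10.8% lower and 9.06% higher in adult KO cells. Of 18 tested enzymes of 27 that conjugate or further oxidise P450 products, 11 were lower and 1 higher in perinate KO cells, and 12 lower and 1 higher in adult KO cells. Among them the glutathione transferase Gstt1 averaged 104 ± 8.93 in perinate KO cells and 349 ± 20.2 in perinate WT GFP+ cells (-1.74 ± 0.11). Among adults its mean was 193 ± 9.43 in KO cells and 678 ± 29.1 in adult WT GFP+ cells (-1.81 ± 0.11). The flavin monooxygenase Fmo2 had log2 differences of -1.73 ± 0.19 in perinates and -1.98 ± 0.19 in adults. Of 7 tested steroid partners of 13, 6 were lower in perinate KO cells and 4 in adult KO cells. Hsd3b6, the dehydrogenase that acts on the product of Cyp11a1, averaged 27.5 ± 2.39 in perinate KO cells and 447 ± 45.5 in perinate WT GFP+ cells (-4.02 ± 0.14, adjusted p = 4.35e-12, at least 4.53-fold). In adults it averaged 30.8 ± 0.734 in KO cells and 543 ± 94.9 in WT GFP+ cells (-4.13 ± 0.14, adjusted p = 1.64e-12, at least 5.27-fold). Star, which brings cholesterol to Cyp11a1, had -0.76 ± 0.12 in perinates and -0.85 ± 0.12 in adults (adjusted p = 0.000129 and 3.84e-05).

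Several retinoid partners were lower in KO cells. Of 7 tested genes of 11, 3 were lower in perinate KO cells (13% of all genes tested) and 5 in adult KO cells (10.8%). None was higher (13.5% and 9.06% of all genes). Crabp1, which carries retinoic acid to the Cyp26 enzymes, averaged 112 ± 15.1 in perinate KO cells and 2250 ± 180 in perinate WT GFP+ cells (-4.34 ± 0.14, adjusted p = 3.53e-12), and 116 ± 13.8 in adult KO cells and 2540 ± 269 in adult WT GFP+ cells (-4.46 ± 0.14, adjusted p = 1.34e-12). Aldh1a2, which makes retinoic acid, had -1.37 ± 0.16 in perinates and -1.58 ± 0.16 in adults. Of 7 tested genes of 9 that serve P450 enzymes in general, 1 was lower at each age. It was the haem-degrading Hmox1 (-0.88 ± 0.31 in perinates and -1.08 ± 0.31 in adults, adjusted p = 0.0454 and 0.0197). The electron donors Cyb5a and Fdx1 and the haem synthesis enzyme Alas1 had log2 differences of -0.07 to 0.17. Of 11 tested nuclear receptors and related regulators of 17, 3 were lower and 2 higher in perinate KO cells and 3 lower in adult KO cells, led by Nr0b1, a repressor of steroid synthesis genes (-1.37 ± 0.16 and -1.48 ± 0.16).

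Markers of other cell types were read beside these results. Of the 8 genes of the hepatocyte list 6 were tested, and all 6 were lower in KO cells at both ages (8.04% of all genes tested). The summed level of the list's 7 measured genes was 543.8 to 600.3 in perinate KO cells, against 1733 to 1974 in perinate WT GFP+ cells. In adults it was 572 to 667.5 in KO cells, against 2156 to 3047 in WT GFP+ cells. The summed level of the 9 medullary epithelial markers was 31970 to 35230 in perinate KO cells, against 32120 to 35970 in perinate WT GFP+ cells, and 31800 to 34750 in adult KO cells, against 32970 to 35010 in adult WT GFP+ cells. Fibroblast markers summed to 3803 to 4167 in adult KO cells, against 2024 to 2290 in adult WT GFP+ cells. In perinates they summed to 4720 to 4947 in KO cells, against 3625 to 4598 in WT GFP+ cells. Dcn made up most of these sums, and the list was split. Dcn and Lum were higher and Col1a1 lower in KO cells at both ages. Col1a2 was lower in perinates only (-0.32, adjusted p = 0.0407), and Pdgfra passed at neither age. Myeloid markers summed to 4633 to 4974 in adult KO cells, against 6026 to 6083 in adult WT GFP+ cells. Myeloid markers summed to 3346 to 3608 in perinate KO cells, against 3683 to 4300 in perinate WT GFP+ cells. Of the 4 listed regulators of liver and gut cells 3 were tested. Hnf4a (-0.75 in perinates, -0.44 in adults) and Cdx2 (-0.83 and -0.36) were lower in KO cells, and Hnf4g passed at neither age. Cdx2 was above the 40th percentile on only 2 arrays. Regulator sums were 341 to 354.8 in perinate KO cells, against 448.3 to 483.6 in WT GFP+ cells. In adults they were 583.2 to 603.6, against 689.5 to 824.9. Lymphocyte, endothelial and cortical epithelial sums overlapped between KO and WT GFP+ cells of the same age. Their part in the P450 results was not tested.

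The GFP sort in WT mice shows which members are high in cells with an active Aire promoter. In perinates 12 of 34 tested genes were higher in GFP+ than in GFP- cells (23% of all genes) and 4 lower (20.5%). In adults 6 were higher (24.7% of all genes) and 11 lower (20.1%). Samples were not paired in this fit. With the adult samples paired by replicate number, 10 were higher and 11 lower, where 52.6% of all genes passed. Over all 87 genes without the filter, 22 were higher and 4 lower in perinate GFP+ cells (background 18.2% and 15.9%), and 11 higher and 19 lower in adult GFP+ cells (20% and 16.6%). The median log2 difference of the 34 was 0.22 in perinates, against 0 over all genes, and -0.07 in adults, against 0.02. Over the 87 without the filter it was 0.15 in perinates, against 0, and 0.04 in adults, against -0.02, so that the adult median changes sign with the filter.

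Cyp26a1, Cyp1a2 and Cyp11a1 were higher in GFP+ cells at both ages. For Cyp26a1 the log2 difference was 3.28 ± 0.22 in perinates (364 ± 44.3 in GFP+ and 37.2 ± 0.121 in GFP- cells, at least 3.42-fold, adjusted p = 6.21e-09) and 2.62 ± 0.20 in adults (356 ± 48.8 and 57.8 ± 7.98, at least 3.26-fold, adjusted p = 4.05e-08). For Cyp1a2 it was 2.65 ± 0.21 in perinates (at least 2.56-fold) and 2.68 ± 0.19 in adults (at least 5.8-fold), and for Cyp11a1 2.01 ± 0.15 (at least 2.2-fold) and 1.37 ± 0.14 (at least 1.97-fold). In all 6 comparisons every GFP- array was below the 40th percentile and below every GFP+ array. Cyp26a1 was above the 40th percentile on every GFP+ array of either genotype, whereas Cyp1a2 and Cyp11a1 were above it on WT GFP+ arrays and on no other array. Cyp4f14 was higher in GFP+ cells at both ages too (0.66 ± 0.13 in perinates and 0.72 ± 0.12 in adults), but both of its perinate groups were below the 40th percentile.

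Of the 3 tested genes of the Cyp2j family, which are related to arachidonic acid epoxygenases, Cyp2j9 and Cyp2j6 were lower in GFP+ cells at both ages. The third tested gene, Cyp2j13, was higher in perinate GFP+ cells, with both groups below the 40th percentile (53.9 ± 9.1 in GFP+ and 24.5 ± 1.9 in GFP- cells, adjusted p = 3.32e-05), and passed no test in adults (adjusted p = 0.77). Cyp2j9 averaged 76.5 ± 19.7 in perinate GFP+ cells (n = 3) and 229 ± 36 in perinate GFP- cells (n = 2), a log2 difference of -1.61 ± 0.24 (at least 2.06-fold, adjusted p = 3.82e-05). In adults it averaged 84.7 ± 8.61 in GFP+ cells and 354 ± 65.6 in GFP- cells (-2.05 ± 0.21, at least 3.19-fold, adjusted p = 1.2e-06). Its neighbour Cyp2j6 had -0.90 ± 0.26 in perinates and -1.78 ± 0.23 in adults (adjusted p = 0.00893 and 1.05e-05). Neither passed between KO and WT GFP+ cells at either age. Cyp2d22 was lower in GFP+ cells as well, by log2 differences of -0.84 ± 0.14 in perinates and -0.43 ± 0.13 in adults.

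In the run of Cyp2 genes on chromosome 7, Cyp2f2, Cyp2g1 and Cyp2b19 were lower in adult GFP+ than in adult GFP- cells. Cyp2f2 read 462.9, 522 and 714.6 in adult WT GFP+ cells and 470.2 and 428.1 in perinate GFP- cells, against 4507, 4691 and 4839 in adult GFP- cells. Cyp2g1 read 1055 to 1221 in adult WT GFP+ cells and 739.4 and 313.6 in perinate GFP- cells, against 6305 to 6481 in adult GFP- cells. Cyp2b19 read 209 to 253.8 in adult WT GFP+ cells and 487.6 and 307.8 in perinate GFP- cells, against 1918 to 2833 in adult GFP- cells. All 3 genes were several times higher on each adult GFP- array than on any other array of the study.

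In adults the log2 differences of GFP+ minus GFP- cells were -3.07 ± 0.29 for Cyp2f2 (adjusted p = 4.13e-07), -2.51 ± 0.30 for Cyp2g1 (adjusted p = 4.13e-06) and -3.30 ± 0.27 for Cyp2b19 (adjusted p = 9.13e-08). None of the 3 passed in perinates. The difference of the GFP effects between the ages, perinate minus adult, was 2.73 ± 0.43 for Cyp2f2, 2.63 ± 0.44 for Cyp2g1 and 2.92 ± 0.40 for Cyp2b19 (adjusted p = 0.000326, 0.000524 and 0.000107). Cyp2s1, at one end of the run, followed with a smaller size, at -0.54 ± 0.13 in adults and 0.76 ± 0.20 for the difference (adjusted p = 0.0031 and 0.012; 0.46 and adjusted p = 0.0893 without perinate GFP- array 2). Cyp2b23, which sits between them, was higher in adult GFP+ cells (0.46 ± 0.14, adjusted p = 0.0137), although its groups overlapped and the call was lost without GFP+ array 7 or GFP- array 8 (adjusted p = 0.0843 and 0.0722). Of the 9 medullary markers, Cd40 (2.01), Cd80 (0.65) and Epcam (0.44) were higher and Krt5 (-1.49) and Cldn3 (-0.72) lower in adult GFP+ cells, and the other 4 did not pass, with sums of 32970 to 35010 in adult GFP+ and 31590 to 35210 in adult GFP- cells. Of the 4 cortical markers, Ccl25 (0.93) and Cd83 (1.01) were higher in adult GFP+ cells and Prss16 and Psmb11 did not pass, with sums of 6973 to 7830 in adult GFP+ and 3936 to 4160 in adult GFP- cells. Their part in this pattern was not tested.

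**Figure D4:**
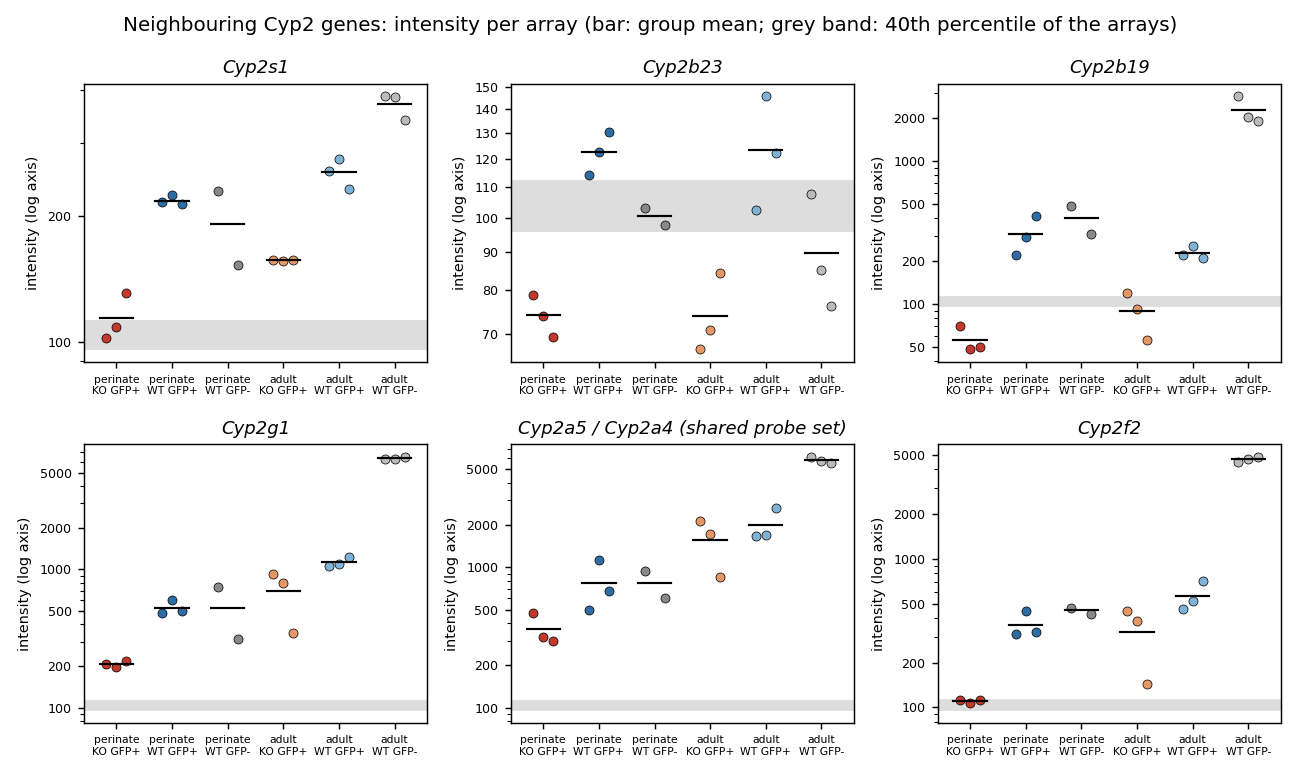
Intensity on a log axis of neighbouring Cyp2 genes on each of the 17 arrays (points), by group, with group means as bars and the range of the arrays' 40th percentiles as a grey band. Cyp2b19, Cyp2g1, Cyp2f2 and the probe set shared by Cyp2a5 and Cyp2a4 are highest on the 3 adult GFP- arrays, with Cyp2g1 at 6305 to 6481, while Cyp2b23 is near the band in all groups.

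Across the GFP sort, 14 members differed between the ages, 12 with a higher value in perinates (10.7% of all genes) and 2 with a lower one (9.28%). Over all 87 genes without the filter it was 18 and 2 (7.83% and 6.68%). Beside the Cyp2 run these included Cyp17a1, at 305 ± 35.1 in perinate GFP+ cells and 91.8 ± 10.6 in perinate GFP- cells but 450 ± 58.9 and 435 ± 87.7 in adult GFP+ and GFP- cells (difference 1.67 ± 0.29, adjusted p = 0.000606). Cyp27a1 averaged 311 ± 45.7 in perinate GFP+ cells and 124 ± 14.1 in perinate GFP- cells, and 331 ± 43 and 338 ± 38.1 in the adult groups (1.35 ± 0.21, adjusted p = 0.000275). Cyp3a13 had 1.03 ± 0.18 in perinates and -0.42 ± 0.16 in adults (1.46 ± 0.24, adjusted p = 0.000447), its adult call being lost without GFP- array 6 or 7 or GFP+ array 7 (adjusted p = 0.0627 to 0.208). Both perinate groups of Cyp3a13 were below the 40th percentile on every array, so its perinate value compares signals near background. For Cyp17a1, Cyp27a1 and Cyp3a13 alike, the perinate GFP- cells were the low group. Cyp51 was higher in perinate GFP+ cells, at 1140 ± 292, than in perinate GFP- cells, at 362 ± 87.7 (1.64 ± 0.27, adjusted p = 0.000107). Its difference between ages (1.12 ± 0.36, adjusted p = 0.038) was lost without any of adult GFP- array 6, perinate GFP- array 2, adult GFP+ arrays 7 and 8 or perinate GFP+ arrays 5 and 6 (adjusted p = 0.0713 to 0.166). Cyp39a1 and Cyp20a1 went the other way (-0.93 ± 0.28 and -0.66 ± 0.19), and both were lost without perinate GFP- array 1 (adjusted p = 0.15 and 0.13), Cyp39a1 also without adult GFP- array 6 or perinate GFP+ array 5 (adjusted p = 0.0582 and 0.0608).

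Perinates and adults were compared within each sort and genotype. More P450 genes passed as lower than as higher in perinates in all 3 comparisons. In WT GFP- cells 24 of 34 tested genes were lower in perinates (24.2% of all genes) and 3 higher (22.2%). In WT GFP+ cells 10 were lower (13.6%) and 2 higher (8.52%), and in KO cells 11 were lower (12.7%) and 2 higher (13.4%). With perinate KO array 1 alone, the KO calls of Cyp2f2, Cyp2u1, Cyp4f16, Cyp4f39 and Cyp7b1 were lost. Their log2 differences were then -1.37, -0.31, -0.42, -0.37 and -0.8. Over all 87 genes without the filter, 33 were lower and 4 higher in perinate GFP- cells (background 18.2% and 17.1%), 14 and 5 in perinate WT GFP+ cells (10.4% and 7.12%) and 13 and 2 in perinate KO cells (9.3% and 9.11%). The median log2 difference of the 34 was -0.62 in WT GFP- cells, against 0.02 over all genes, -0.18 in WT GFP+ cells, against 0, and -0.15 in KO cells, against -0.01. Over the 87 without the filter it was -0.19 in WT GFP- cells, against 0.03, -0.09 in WT GFP+ cells, against 0.03, and -0.07 in KO cells, against -0.03.

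Cyp3a13 was lower in perinates in all 3 comparisons. It read 47.98 and 43.7 in perinate GFP- cells, against 456.5, 361.9 and 327.8 in adult GFP- cells (-3.05 ± 0.18, at least 3.58-fold, adjusted p = 1.85e-09). In WT GFP+ cells it read 78.08, 106.9 and 98.73 in perinates, against 306.4, 230.6 and 319.1 in adults (-1.59 ± 0.16, at least 2.55-fold), and in KO cells 67.62, 49.9 and 55.33 in perinates, against 126.7, 149 and 128.5 in adults (-1.23 ± 0.16, at least 1.37-fold). No perinate array reached an adult array of its sort and genotype. Cyp1a2 was lower in perinate than in adult WT GFP+ cells, at 284 ± 108 against 630 ± 51.3 (-1.21 ± 0.19, adjusted p = 0.00034). Cyp2g1 was lower in perinates in GFP- cells (-3.73 ± 0.33), WT GFP+ cells (-1.09 ± 0.30; adjusted p = 0.0517 without adult array 8) and KO cells (-1.62 ± 0.30). Cyp2f2 was lower in perinate GFP- (-3.38 ± 0.32) and KO cells (-1.39 ± 0.29), where KO array 1 alone gave an adjusted p of 0.0518. Cyp17a1 was lower in perinate GFP- cells (-2.23 ± 0.21, at least 4.06-fold) and KO cells (-2.51 ± 0.19, at least 4.31-fold), and in WT GFP+ cells (-0.56 ± 0.19, adjusted p = 0.045), a call lost without any of adult arrays 6 to 8 or perinate arrays 5 and 7 (adjusted p = 0.0636 to 0.161).

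A few members were higher in perinates. Cyp51 averaged 1140 ± 292 in perinate WT GFP+ cells and 490 ± 92.3 in adult WT GFP+ cells (1.19 ± 0.24, adjusted p = 0.00227), and 1030 ± 369 in perinate KO cells and 544 ± 63.1 in adult KO cells (0.86 ± 0.24, adjusted p = 0.0147). The KO call was lost without perinate KO array 1, which at 1452 was the highest of the 3, or adult KO array 2 (adjusted p = 0.0877 and 0.0619). Cyp39a1 averaged 413 ± 112 in perinate GFP- cells and 181 ± 24.1 in adult GFP- cells (1.17 ± 0.21, adjusted p = 0.000186). Cyp2d22 (0.71 ± 0.14) and Cyp20a1 (0.50 ± 0.14) were higher in perinate GFP- cells too, the second not without perinate array 1 (adjusted p = 0.184), and Cyp26b1 in perinate WT GFP+ cells (0.39 ± 0.10, adjusted p = 0.00913). Cyp2j13 was higher in perinate than in adult KO cells (0.80 ± 0.15), but lower in perinates among WT GFP+ (-1.32 ± 0.15) and GFP- cells (-2.38 ± 0.17). Beside the GFP- comparison, myeloid markers, chiefly Lyz2, summed to 628.9 to 859.5 in perinate GFP- cells, against 4661 to 5603 in adult GFP- cells. Of the 4 cortical markers Prss16 and Psmb11 were higher in perinate GFP- cells (2.81 and 1.90), Ccl25 was lower (-1.18) and Cd83 did not pass. Cortical sums were 5052 to 5538 in perinate and 3936 to 4160 in adult GFP- cells. Of the 9 medullary markers, 5 were lower and none higher in perinate GFP- cells (24.2% and 22.2% of all genes tested). Medullary sums were 27600 to 29190 in perinate and 31590 to 35210 in adult GFP- cells. Sums were lower in perinate than in adult GFP- cells for hepatocyte (634.1 to 649.1, against 1715 to 1874) and lymphocyte markers (546.7 to 620.6, against 670.9 to 1157). The same held for the listed liver and gut regulators (263.9 to 279.5, against 523.9 to 802.7). Fibroblast sums, chiefly Dcn, were higher (3484 to 3501, against 1658 to 1942), and endothelial sums overlapped. The part of these markers in the age difference was not tested, and the comparison rests on 2 perinate arrays.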

How the data were processed

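RNA of 17 samples of sorted mouse medullary epithelial cells was measured on Affymetrix Mouse Gene 1.0 ST arrays, 1 per sample. Per the submitters' processing notes, the authors used Affymetrix Power Tools and RMA, a method that corrects background, normalizes arrays and summarises probes. Its output was deposited as linear intensity per probe set. Versions, and which arrays were normalized together, are not stated in the labels. Groups and replicate numbers come from the labels. Of 24922 probe sets, the platform annotation named 1 gene for 21425 and more than 1 for 1399, and the other 2098 stay without a name. 0 columns of values went unused.

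From these intensities log2 values were computed with no offset. Each of 19752 genes was read from its brightest probe set (by mean of 17 arrays), and genes above the 40th percentile of their array on at least 2 arrays were tested (13842 genes). 1 model of the 6 group means was fitted to all arrays (limma 3.58.1, R 4.3.3; functions lmFit, contrasts.fit, eBayes), with 11 residual and 5.52 prior degrees of freedom. P-values are two-sided and Benjamini-Hochberg adjusted over all genes of a comparison, with calls at 0.05. Differences are KO minus WT, GFP+ minus GFP- and perinate minus adult. SDs are those of linear intensities. Precision is limited by how few arrays a group holds, and the steps were tested on simulated data. 7 probe sets with a Cyp symbol among several are not members. Those of all genes with several symbols that passed the filter, 875 in number, were fitted apart.

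The members, the lists of partner genes and cell markers and the comparisons were chosen with earlier results of these data known. Named are the called members by size of difference between KO and WT (up to 15 per direction), all members of the lists by role, and up to 4 called partner genes per list. In other comparisons up to 8 per direction were to be named, but some of these are left out, so an unnamed member may have passed. Adult WT GFP+ and GFP- arrays share replicate numbers. Their deviations from the group means correlated at 0.5, 0.44 and 0.19 for the same numbers, so these numbers may pair the samples. KO arrays of the same number in perinates and adults did not correlate in this way (0.05, 0.04 and 0.06). The main fit used no pairing, which entered only as an alternative fit. Promoters, gene order and their build (GRCm38.p6) are from RefSeq. Alternatives were other normalizations, filters, array weights, priors, fits of the compared groups alone, a log offset, left-out arrays and the pairing. Python 3.11.15, pandas 2.3.3 and matplotlib 3.10.9 drew the figures and searched the promoters.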

Additional observations from a re-analysis of the deposited data

Results flagged for a closer look

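The knockout effect differed between the ages by the test of the difference itself (limma, perinate minus adult on the log2 scale) for Cyp2j13 (2.11, adjusted p = 0.000238), Cyp17a1 (-1.95, adjusted p = 0.00396) and Cyp26b1 (-0.68, adjusted p = 0.0274). Cyp2j13 passed in opposite directions, higher in KO than in WT GFP+ cells of perinates and lower in adults.

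The difference of GFP+ minus GFP- cells varied with age in the same kind of test for 14 members. The signed value, perinate minus adult, was positive for Cyp2b19 (2.92), Cyp2f2 (2.73), Cyp2g1 (2.63), Cyp17a1 (1.67), Cyp3a13 (1.46), Cyp27a1 (1.35), Cyp51 (1.12), Cyp2j13 (1.06), Cyp4f15 (0.98), Cyp4f39 (0.97), Cyp2s1 (0.76) and Cyp11a1 (0.65), and negative for Cyp39a1 (-0.93) and Cyp20a1 (-0.66). For Cyp2b19, Cyp2f2 and Cyp2g1 the GFP+ minus GFP- difference was -0.38, -0.34 and 0.13 in perinates, where none passed, and -3.30, -3.07 and -2.51 in adults. Adjusted p ran from 0.000107 for Cyp2b19 to 0.038 for Cyp51. Cyp11a1 lost its call without any of adult GFP- arrays 6 and 7, perinate GFP- array 1, adult GFP+ arrays 6 and 7 or perinate GFP+ arrays 5 and 6 (adjusted p = 0.0553 to 0.178). Cyp4f15 and Cyp4f39 lost theirs without perinate GFP- array 2 (adjusted p = 0.0528 and 0.0985).

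A probe set outside the members, shared by Cyp2a5 and Cyp2a4, was highest in adult GFP- cells like the neighbouring Cyp2f2, Cyp2g1 and Cyp2b19, but by less. Cyp2a5 hydroxylates coumarin in liver and olfactory mucosa. The probe set read 1660 to 2667 in adult WT GFP+ cells, against 5579 to 6110 in adult GFP- cells, a log2 difference of -1.56 ± 0.35 (SE, adjusted p = 0.00229 over the 875 probe sets with several symbols). In perinate GFP- cells it read 606.3 and 936.5, a log2 difference of -2.94 ± 0.39 against adult GFP- cells (adjusted p = 4.91e-05). The probe set was also lower in perinate than in adult WT GFP+ cells (-1.43 ± 0.35, adjusted p = 0.0124). Cyp2g1 passed as lower in that comparison, and Cyp2f2 and Cyp2b19 did not pass. Between KO and WT GFP+ cells it did not pass (-1.04 ± 0.35, adjusted p = 0.0521 in perinates and -0.42 ± 0.35, adjusted p = 0.497 in adults).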

How the results depend on the processing

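No called difference of a member changed sign under any alternative, over 138 pairs of gene and comparison. Calls lost were 5 with quantile normalization, 2 with arrays centred on their median, 7 with array weights, 10 with the compared groups alone, 1 with an offset of 16 before the log, 2 without the filter and 0 with a trended robust prior or the lowest probe set per gene (members have 1 each). Without the filter on dim probe sets, counts of called members were 31 for KO in adults, 31 for KO in perinates, 5 for the difference of the KO effects, 30 and 26 for GFP in adults and perinates, and 19 for age in WT GFP+ cells. With the filter at the 60th percentile (20 members tested) they were 10, 11 and 1 for the KO comparisons and 6 for age in WT GFP+ cells, fewer genes being tested. Without perinate KO arrays 2 and 3, 12 members passed for KO in perinates and 15 of 36 calls that use perinate KO cells were lost. Leaving out 1 array at a time gave 13 to 17 members for KO in adults, 19 to 23 for KO in perinates, 2 to 3 for their difference, 13 to 17 and 16 to 18 for GFP in adults and perinates, 10 to 16 for their difference, and 8 to 13, 21 to 26 and 9 to 14 for age in WT GFP+, WT GFP- and KO cells. With the replicate block, 21 members were called for GFP in adults, 16 of them called without it, and Cyp2w1 was lost (adjusted p = 0.0585). In the age comparisons, where the numbers are not shown to pair the samples, it gave 13 in WT GFP+ and 14 in KO cells. Signal over background limits the 53 members that were not tested, and 2 arrays limit perinate GFP- cells.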

Other observations

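Several probe sets with more than 1 Cyp symbol followed the sort and genotype near background. The probe set shared by Cyp3a41b, Cyp3a44 and Cyp3a41a, liver enzymes of female mice, read 13.33 to 14.78 in perinate KO cells, against 20.34 to 26.21 in perinate WT GFP+ cells, and 14.87 to 17.62 in adult KO cells, against 78.83 to 93.52 in adult WT GFP+ cells. It read 13.46 and 13.78 in perinate GFP- cells and 29.93 to 38.66 in adult GFP- cells. All these values are below the 40th percentile of the arrays, so the size of the difference is not interpretable.

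The probe set shared by Cyp4v3, a fatty acid hydroxylase, and Klkb1, a plasma protease gene, averaged 144 ± 8.11 in adult KO cells and 185 ± 13.1 in adult WT GFP+ cells (SD, -0.37 ± 0.10, adjusted p = 0.0228 with limma), and 111 ± 11 in perinate KO cells and 132 ± 11 in perinate WT GFP+ cells (adjusted p = 0.0861). It was lower in perinates than in adults in WT GFP- cells (-0.85 ± 0.11), WT GFP+ cells (-0.49 ± 0.10) and KO cells (-0.37 ± 0.10). The signal cannot be assigned to either gene.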
